A study of Mus musculus with 2 samples.

Results

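The Mir181 family of the mouse consists of 6 microRNA (miRNA) genes in 3 paralogous clusters: Mir181a-1 with Mir181b-1 on chromosome 1, Mir181a-2 with Mir181b-2 on chromosome 2, and Mir181c with Mir181d on chromosome 8. Its members were chosen by gene symbol, through their Ensembl identifiers, and all 6 were found among the 1973 miRNA genes of the count tables. The tissue was neural tube, the embryonic forerunner of the brain and spinal cord, taken from healthy B6NCrl mice at 15.5 days of development. No genotype or treatment is named in the labels. The samples form 1 group of 2 libraries, labelled as biological replicates, each made from pooled embryos of mixed sex: 78 embryos for library 1 and 62 for library 2. With 1 group there is no contrast between conditions, and the questions are how much of each Mir181 gene was counted, how the 3 clusters compared, and how far the pools differed.

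A miRNA gene is transcribed as part of a longer RNA that folds into a hairpin, from which the enzymes Drosha and Dicer cut short RNAs of the 5p and the 3p arm. The mature miRNA guides Argonaute to messenger RNAs, mainly by pairing of its seed, bases 2 to 8, and lowers their output. Paralogs with the same seed can recognise overlapping sets of targets. The Mir181 family is best known from lymphocyte development, where miR-181a tunes T cell receptor signalling, and it is also expressed in brain and retina.

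The mature sequences are shown first because they decide which reads can be told apart. They are those of RefSeq on GRCm38.p6, which held mature sequences for all 6 genes, and the seed is in capitals. The 5p arms were:
miR-181a-5p (Mir181a-1, chr1:137966468-137966490, + strand, and Mir181a-2, chr2:38852741-38852763, + strand): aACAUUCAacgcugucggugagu
miR-181b-5p (Mir181b-1, chr1:137966650-137966673, + strand, and Mir181b-2, chr2:38853845-38853868, + strand): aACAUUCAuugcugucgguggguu
miR-181c-5p (Mir181c, chr8:84178924-84178945, - strand): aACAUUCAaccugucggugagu
miR-181d-5p (Mir181d, chr8:84178759-84178781, - strand): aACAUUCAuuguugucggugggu

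All 6 genes carried the same 5p seed, and 0 other genes of the RefSeq table had it. The sequences after the seed split the family in a different way from the genome. The miR-181c-5p sequence, from chromosome 8, was 1 edit away from miR-181a-5p, which has a single additional base. Its cluster partner miR-181d-5p was 2 edits away from miR-181b-5p. Within the chromosome 8 cluster, miR-181c-5p and miR-181d-5p were 5 edits apart, and miR-181a-5p and miR-181b-5p were 4 edits apart. Each cluster thus pairs an a-like gene (a or c) with a b-like gene (b or d).

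The 3p arms are shown because they are the part that is unique to each gene, also where the 5p arm is shared. They were, with the seed in capitals:
miR-181a-1-3p: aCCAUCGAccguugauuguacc
miR-181a-2-3p: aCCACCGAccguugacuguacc
miR-181c-3p: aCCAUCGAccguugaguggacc
miR-181b-1-3p: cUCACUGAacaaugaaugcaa
miR-181b-2-3p: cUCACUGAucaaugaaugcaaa
miR-181d-3p: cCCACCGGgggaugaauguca
These 6 sequences had 4 different seeds. The miR-181a-1 and miR-181c 3p arms had 1 seed in common, as had both miR-181b 3p arms, while those of Mir181a-2 and Mir181d each had their own.

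The identical 5p arms lie in hairpins that differ around them. In the next 4 sequences, the stretch that is the same in both copies is in capitals:
Mir181a-1 (chr1:137966455-137966541, + strand): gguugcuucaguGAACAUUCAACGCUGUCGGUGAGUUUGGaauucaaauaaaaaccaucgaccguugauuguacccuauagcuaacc
Mir181a-2 (chr2:38852735-38852810, + strand): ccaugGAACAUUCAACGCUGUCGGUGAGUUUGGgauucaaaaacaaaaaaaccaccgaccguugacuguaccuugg
Mir181b-1 (chr1:137966639-137966718, + strand): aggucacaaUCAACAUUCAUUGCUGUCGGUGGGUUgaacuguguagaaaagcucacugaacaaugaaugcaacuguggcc
Mir181b-2 (chr2:38853830-38853918, + strand): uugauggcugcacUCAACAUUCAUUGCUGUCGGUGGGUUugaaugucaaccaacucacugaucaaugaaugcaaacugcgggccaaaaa
The Mir181a copies had 28 bases in common here, that is miR-181a-5p with 1 base before it and 4 after it. For the Mir181b copies the run was 26 bases, with 2 before miR-181b-5p and 0 after it. A read that lies within such a run matches both copies equally well. Reads aligned to several places, 29.4% of all reads in library 1 and 29.7% in library 2, were counted in no gene. The counts of these 4 genes therefore hold only reads that were placed at 1 location, and the tables do not say from which arm a read came. Mir181c and Mir181d had no arm in common with another gene.

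The clusters sit in different surroundings on mm10. Mir181a-1 and Mir181b-1 are 97 bases apart, and both lie in an intron of Gm4258, a non-coding gene on the same strand. Gm26936, a non-coding gene on the opposite strand, also spans both, with no exon over either. Mir181b-1 also lies in an exon of the non-coding gene A430106G13Rik, which begins inside Mir181a-1 and overlaps its last 11 bases. Mir181a-2 and Mir181b-2 are 1019 bases apart, in an intron of Nr6a1, an orphan nuclear receptor gene that is transcribed from the opposite strand. Mir181b-2 is in addition covered by an exon of the unconfirmed gene model Gm44144, also on the opposite strand. Mir181d (chr8:84178716-84178787) and Mir181c are 85 bases apart, in an intron of Nanos3, a germ cell gene on the same strand. Counts on the opposite strand were 0 for all 6 genes in both libraries.

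Sense-strand counts in miRNA genes came to 4228685 in library 1 and 6039889 in library 2. Levels are given in CPM, a gene's counts scaled to 1e6 of these. They are not divided by gene length, since a miRNA read covers the mature RNA and not the annotated precursor. Of the 1973 genes, 363 had at least 10 counts in each library and are called detected. With 0 counts, a level of up to 0.709 CPM would still be possible in library 1, and 0.497 CPM in library 2. All intervals cover counting error only. In this bulk tissue, fewer cells that express a gene and less RNA per cell cannot be told apart. Among markers of neural tissue, 5 of 9 genes were detected, led by Mir137, an miRNA of neurons and their progenitors, with 6615 and 7220 CPM, while the 3 copies of Mir124a and Mir9-2 were below 10 counts in at least 1 library. Reads that match several copies of a miRNA equally well are in no gene's count. These low counts therefore do not measure the whole output of a miRNA with several copies. Mir9-1 was not analysed here.

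The chromosome 8 cluster held most of the family's counts. Mir181c was counted 37010 times in library 1 and 55158 times in library 2, or 8752 and 9132 CPM, with a mean of 8942 ± 269 CPM (SD, n = 2). It had the most counts of any member in both libraries and held rank 18 of the 363 detected genes by mean level. Its partner Mir181d had 16949 and 28017 counts, or 4008 and 4639 CPM, with a mean of 4323 ± 446 CPM (n = 2) and rank 34. Mir181c stood above Mir181d by 2.18-fold in library 1 and 1.97-fold in library 2. Neither gene shares an arm with another, unlike the a and b copies.

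In the chromosome 1 cluster, Mir181a-1 was abundant and Mir181b-1 was scarce. Mir181a-1 had 12881 and 20683 counts, or 3046 and 3424 CPM, with a mean of 3235 ± 267 CPM (n = 2) and rank 44. Mir181b-1, whose precursor begins 97 bases further on, had 46 counts in library 1 and 62 in library 2. This is 10.9 CPM (95% Wilson interval 8.16 to 14.5) and 10.3 CPM (8.01 to 13.2), with a mean of 10.6 ± 0.433 CPM (n = 2) and rank 296. It passed the detection limit in both libraries but was the only member below the median level of detected genes, which was 136 CPM.

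In the chromosome 2 cluster the order of these counts was turned round. Mir181b-2 had 4045 and 6181 counts, or 957 and 1023 CPM, with a mean of 990 ± 47.2 CPM (n = 2) and rank 85. Mir181a-2 had 685 and 913 counts, or 162 and 151 CPM, with a mean of 157 ± 7.66 CPM (n = 2) and rank 173. By reads placed at 1 location, the b gene was thus the higher partner here, whereas the a-like gene was the higher partner on chromosomes 1 and 8.

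**Figure D1:**
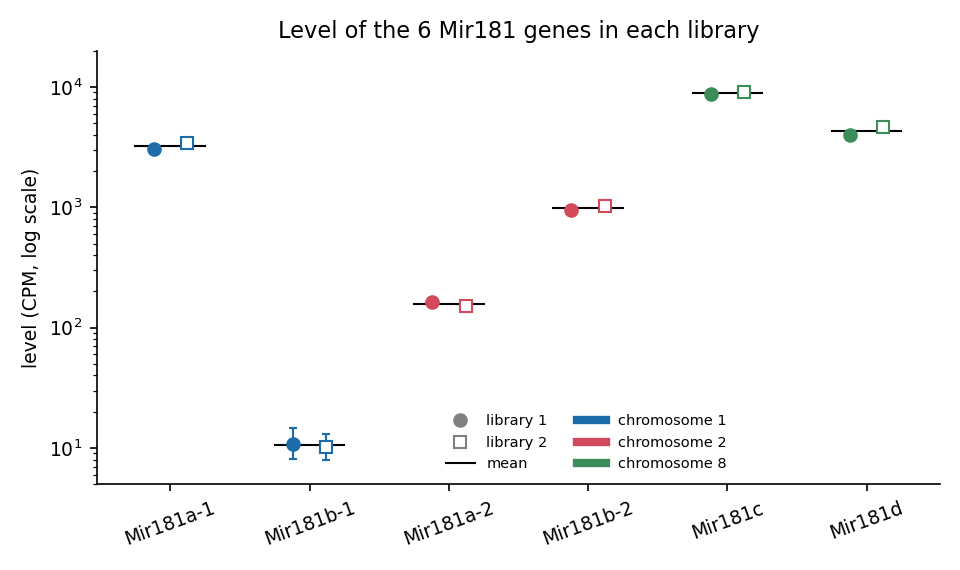
Level of each Mir181 gene in CPM on a log scale, with filled circles for library 1, open squares for library 2, the mean as a black line and 95% Wilson counting intervals as bars, which are smaller than most symbols. The genes span from 10.6 CPM for Mir181b-1 to 8942 CPM for Mir181c, and the libraries lie close together for each. Levels of the a and b genes leave out reads that match both copies.

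From high to low the order was Mir181c, Mir181d, Mir181a-1, Mir181b-2, Mir181a-2 and Mir181b-1 in both libraries. No neighbours in this order overlapped. The closest were Mir181d and Mir181a-1, where the lower library of Mir181d had 4008 CPM and the higher library of Mir181a-1 had 3424 CPM. The widest step was the last one, from Mir181a-2 to Mir181b-1, with 14.9-fold and 14.7-fold. Dividing counts by precursor length left this order as it was. The a and b genes lack the reads that match both copies, while Mir181c and Mir181d share no arm. The order thus ranks unlike sets of reads, and the part of the omitted reads in it was not tested.

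Summed over all 6 genes, the family's share of sense counts was 1.69% for library 1, with a 95% Wilson interval of 1.68 to 1.71, and 1.84% for library 2 (1.83 to 1.85). Of the family's counts, the chromosome 8 cluster took 75.3% and 74.9% in the libraries (75.1% ± 0.298, n = 2). The chromosome 1 cluster took 18.1% and 18.7% (18.4% ± 0.450, n = 2), and 99.6% and 99.7% of that cluster's counts came from Mir181a-1. The chromosome 2 cluster took 6.60% and 6.39% (6.50% ± 0.152, n = 2). The gaps between the clusters were far wider than the spread between the pools. An exact permutation test over 2 libraries could not reach 0.05, so none was run. These shares count reads placed at 1 location, and the part that the omitted reads of miR-181a-5p and miR-181b-5p have in the order of the clusters was not tested.

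Partners of a cluster were counted in very different proportions. On chromosome 1, Mir181a-1 exceeded Mir181b-1 by 280-fold in library 1 (exact 95% interval 210 to 383) and 334-fold in library 2 (260 to 435). On chromosome 2, Mir181b-2 exceeded Mir181a-2 by 5.91-fold (5.44 to 6.41) and 6.77-fold (6.31 to 7.27). The log2 ratio of the a-like to the b-like gene was 8.26 ± 0.18 on chromosome 1, -2.66 ± 0.14 on chromosome 2 and 1.05 ± 0.11 on chromosome 8 (n = 2 each). The smallest gap between these 3 values is far wider than any of the SDs. The ratios do not rest on like reads, however. The genes on chromosomes 1 and 2 lack the reads that match both copies, while Mir181c and Mir181d share no arm. The part of the omitted reads in these ratios was not tested.

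**Figure D2:**
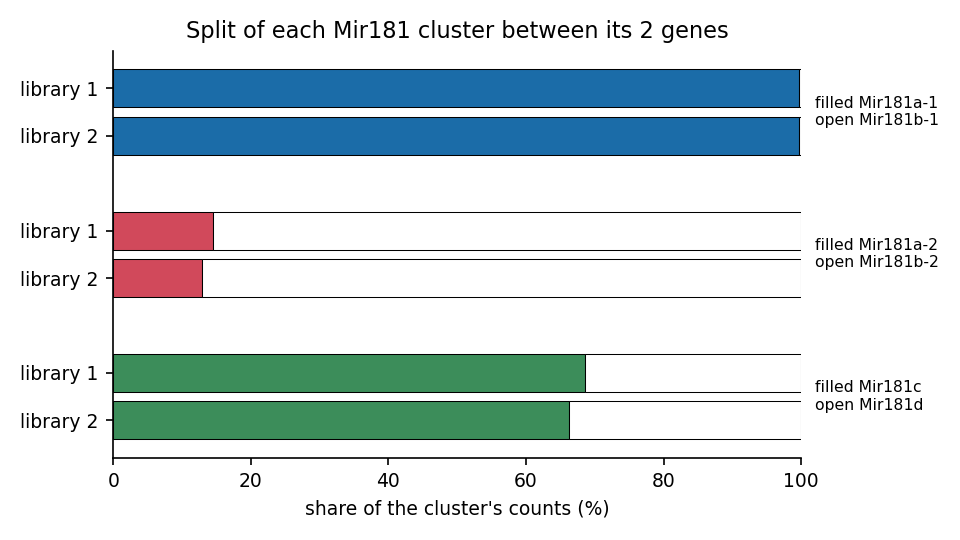
Share of each cluster's sense counts, in percent, that fell to each of its genes, with 1 bar for each library; the filled part is the a-like gene and the open part the b-like gene. The filled part takes 99.6% and 99.7% on chromosome 1, 14.5% and 12.9% on chromosome 2, and 68.6% and 66.3% on chromosome 8.

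To set these ratios in context, all pairs of detected miRNA genes that are next to each other on a strand, at most 10 kb apart, were measured in the same way. The 93 such pairs had a median ratio of 7.04-fold between the higher and the lower gene, with quartiles at 3.03-fold and 37.9-fold. The pair of Mir181a-1 and Mir181b-1 was the sixth most uneven, at 306-fold over both libraries. The chromosome 2 pair was near the middle (6.32-fold, rank 52), and the chromosome 8 pair was among the more even ones (2.07-fold, rank 76). Among pairs in which at least 1 gene shares an arm with another gene, the median ratio was 25.6-fold over 19 pairs, against 6.58-fold over 71 pairs without a shared arm; the other 3 pairs hold a gene not matched to a mature sequence. These are descriptions of the same 2 libraries, and neighbouring pairs can have a gene in common.

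The copies of each shared miRNA were also counted unequally. Mir181a-1 was counted 18.8 times as often as Mir181a-2 in library 1 (exact 95% interval 17.4 to 20.3) and 22.7 times in library 2 (21.2 to 24.2). Mir181b-2 was counted 87.9 times as often as Mir181b-1 in library 1 (65.8 to 120) and 99.7 times in library 2 (77.7 to 130). The favoured copy therefore lay on chromosome 1 for miR-181a and on chromosome 2 for miR-181b. Since these counts leave out reads of the shared arm that match both copies, they compare the reads particular to each gene, not the output of miR-181a-5p or miR-181b-5p from each locus.

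Among pairs with both copies detected, other miRNAs were mostly more even. In RefSeq, 53 of the 916 genes matched by symbol had 1 arm in common with another gene and 1 of their own. Pairs were formed where exactly 2 such genes, and no other gene, hold the arm and both had counts. Arms with more copies do not enter. Of these pairs, 14 were detected in full. Their median ratio was 2.89-fold, and 2.11-fold without the Mir181 pairs. Mir181b had the widest ratio of the 14, at 93.6-fold between mean levels, Mir196a of the Hox clusters followed with 81.0-fold, and the Mir181a pair came next with 20.7-fold. Among the most abundant of the other pairs, Mir125b-2 and Mir125b-1 were 1.40-fold apart, Mir128-1 and Mir128-2 were 1.80-fold apart, and Mir16-1 and Mir16-2 were 5.26-fold apart. Only 4 of the 14 pairs exceeded 10-fold, and 2 of those 4 were Mir181 pairs. The 14 pairs need at least 10 counts of both genes in each library, which leaves out pairs with a scarce copy. Of 19 pairs with counts for both genes, those left out had 1.37-fold (Mir29b), 2.62-fold (Mir450), 11.6-fold (Mir194), 16.6-fold (Mir103) and 16.9-fold (Mir3070).

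**Figure D3:**
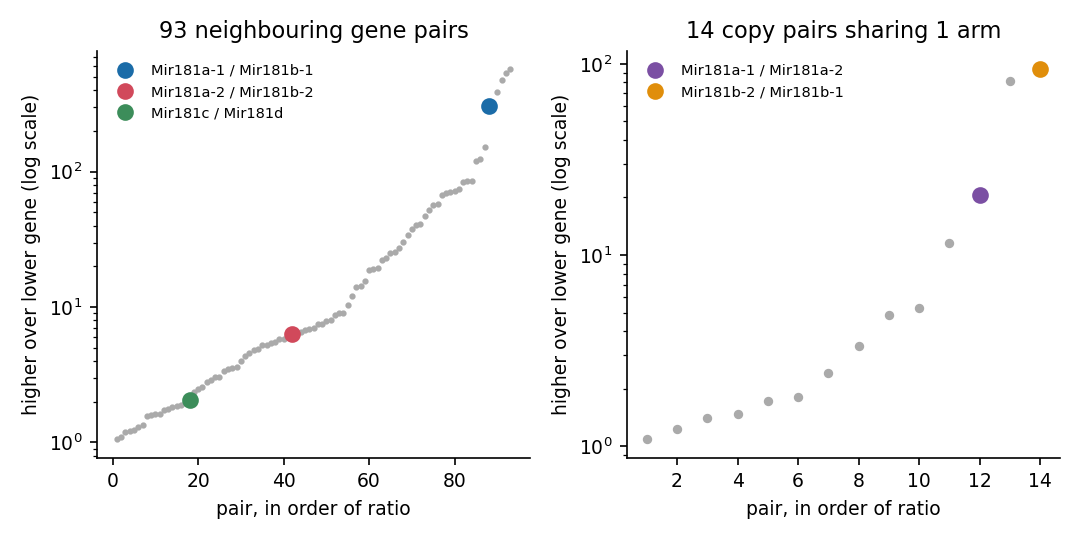
Ratio of the higher to the lower gene, on a log scale, for 93 neighbouring gene pairs (left) and for 14 pairs of copies that share 1 mature arm (right), each point a pair in order of its ratio and coloured where it is a Mir181 pair. Mir181a-1 with Mir181b-1 stands near the upper end on the left at 306-fold, and the Mir181b and Mir181a copies take ranks 1 and 3 on the right at 93.6-fold and 20.7-fold.

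Levels were also set beside whether a gene shares an arm, which does not show how many reads a gene lost. Of the 53 genes with 1 shared arm, 39 were detected, with a median of 157 CPM, which is the level of Mir181a-2 itself. Mir181a-1 and Mir181b-2 stood above that median and Mir181b-1 below it. Of 829 genes with no shared arm, 284 were detected, with a median of 138 CPM, and both Mir181c and Mir181d stood far above it. Of 34 genes with every arm shared, a class that holds 0 Mir181 genes, 7 were detected.

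Between the pools, the Mir181 genes with the most counts were slightly higher in library 2. Each detected gene was compared by a two-sided exact binomial test on the counts of these libraries, with library sizes scaled by TMM and p-values adjusted over all 363 genes by the Benjamini-Hochberg method. It compares the libraries, not conditions, and takes in counting error alone. By this test 49.9% of all detected genes differed, and 24.2% were higher in library 2. Of the 6 Mir181 genes, 4 passed and all 4 were higher in library 2, while Mir181a-2 and Mir181b-1 did not pass. Ratios are given as library 1 over library 2 on the log2 scale, and their median was -0.11 over the 6 members and -0.0036 over all detected genes.

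Mir181d had the widest difference, with a log2 ratio of -0.24 (95% interval -0.27 to -0.22; exact binomial test, adjusted p = 8.43e-68), or 1.18-fold. Mir181a-1 followed with -0.20 (-0.23 to -0.17; exact binomial test, adjusted p = 2.05e-35). Mir181b-2 had -0.13 (-0.19 to -0.074; exact binomial test, adjusted p = 2.03e-05). Mir181c had the narrowest of the 4, -0.095 (-0.11 to -0.076; exact binomial test, adjusted p = 4.61e-22), or 1.07-fold. All 4 differences are small in size and pass because the counts are large. edgeR's exact test called 0 of the 6 members and 2.20% of all detected genes; at an unadjusted p under 0.05 it had 0 members and 14 of 363 genes. Its coefficient of variation of 34.3% was estimated from the same 2 libraries it compares, so differences as small as these could not pass it, and its count says nothing on whether they are stable.

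The copies with fewer counts had log2 ratios near 0. Mir181a-2 had 0.066 (95% interval -0.079 to 0.21; exact binomial test, adjusted p = 0.519). Mir181b-1 had 0.050 (-0.53 to 0.62; exact binomial test, adjusted p = 0.969). With 46 and 62 counts, differences within that interval were not detectable for Mir181b-1 at this depth. Summed by cluster, the log2 ratio was -0.20 on chromosome 1, -0.10 on chromosome 2 and -0.14 on chromosome 8.

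**Figure D4:**
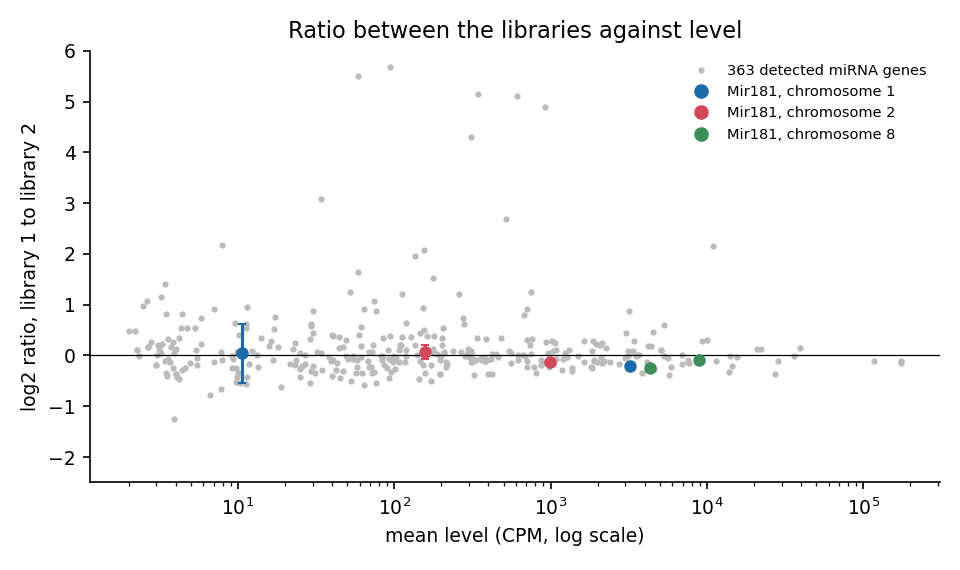
Log2 ratio of library 1 to library 2 (TMM-scaled) against mean level in CPM on a log scale, for 363 detected miRNA genes in grey and the Mir181 genes in colour, with 95% exact counting intervals. The Mir181 genes lie between -0.24 and 0.066, within the main band of genes and away from the genes far higher in library 1.

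The split within a cluster was compared between the pools by a two-sided Fisher exact test for every neighbouring pair, adjusted over the 93 pairs; it needs no scaling of library sizes. Like the binomial test, it takes in counting error alone and compares the libraries, not conditions. The Fisher test called 31.2% of all pairs and 2 of the 3 Mir181 pairs. Mir181c took 68.6% of its cluster in library 1 and 66.3% in library 2 (Fisher exact test, adjusted p = 4.26e-17). Mir181a-2 took 14.5% and 12.9% of its cluster (Fisher exact test, adjusted p = 0.0434), a call that was lost with no filter on low counts (adjusted p = 0.0582). For Mir181a-1 and Mir181b-1 the split did not pass (Fisher exact test, adjusted p = 0.511), and the shift of its log2 ratio, library 1 less library 2, was -0.25. The size of the shift had a median of 0.19 over all pairs, so those of the Mir181 pairs, from 0.15 to 0.25, lay near that median.

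The pools also differed in genes of other tissues. Epithelial markers (7 of 7 detected) had a sum of 5458 CPM in library 1 against 631 CPM in library 2. Mesenchymal and smooth muscle markers (6 of 7 detected) summed to 22420 and 7594 CPM, most of it Mir143 with 17950 and 3951 CPM. Without Mir143 the sums were 4471 and 3643 CPM, and Mir140, the next largest, had 2985 and 3025 CPM. Leukocyte markers, of interest because Mir181 genes are known from lymphocytes, summed to 433 and 237 CPM, with 3 of 4 detected, Mir150 at 71.4 and 66.6 CPM, and Mir142b with 0 sense counts in both. The endothelial gene Mir126a had 22011 and 19666 CPM, and the erythroid markers (3 of 3 detected) 202 and 183 CPM. All these sums were lower in library 2. The neural markers had sums of 10621 and 11612 CPM. The part of these tissues in the Mir181 levels was not tested. In an alternative, the marker genes of other tissues were left out of the library sizes, which were then not scaled further. Such a change moves the log2 ratio of every gene by the same amount, so it cannot show the part of other tissues in the Mir181 levels. All 4 called differences became smaller, while the ratios of Mir181a-2 (0.13) and Mir181b-1 (0.12) moved further from 0. Mir181b-2 no longer passed (log2 ratio -0.064, exact binomial test, adjusted p = 0.0541). Mir181c had -0.028 in place of -0.095 (exact binomial test, adjusted p = 0.0095), Mir181a-1 had -0.14 and Mir181d -0.18. With all genes kept and library sizes alone, Mir181c had -0.061.

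The genes closest to each member in level were found by the distance of log2(CPM + 1) over both libraries, a likeness over 2 samples only. Mir17 was the nearest to Mir181c (distance 0.27), with 10244 and 8262 CPM. Mir125a was the nearest to Mir181d (0.12) and Mir22 to Mir181a-1 (0.059). Mir125b-1 was the nearest to Mir181b-2 (0.081), Mir129-2 to Mir181a-2 (0.023) and Mir1968 to Mir181b-1 (0.14). The second nearest were Mir369, Mir342, Mir98, Mir323, Mir421 and Mir879, in the same order of members, at distances of 0.075 to 0.32.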

How the data were processed

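Small RNA libraries from 2 pools of neural tube were analysed. The authors deposited 1 table of raw read counts per library, with 1973 miRNA genes; the deposited README texts name genome build mm10 and annotation GENCODE M4. The aligner, the counting tool and trimming were not given in the sources used here. The deposited counts are given for both strands together and for each strand. The column used as sense was set by its position, and of the strands it held the larger total in both libraries. Entries that name no gene, 45.7% and 47.7% of reads, were left out. Of the identifiers, 1894 matched GENCODE M21 without the version number. That of Mir181c matched only in this way, so its precursor position is not printed. Its M21 position still underlies the gap of 85 bases, the Nanos3 overlap, the neighbouring pairs and the values per precursor length. Arms were compared as exact sequences within RefSeq.

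The members and gene lists were chosen with earlier results of these data known. Named genes are the members, the 2 nearest in level to each, marker list members and the most abundant copy pairs. Library sizes were scaled with TMM (edgeR 4.0.16, R 4.3.3); DESeq2 1.42.0 size factors were an alternative. edgeR's exact test used the common dispersion of both libraries. The exact binomial test and the Fisher exact test were tried on simulated counts that held counting error only. edgeR's exact test was not tried on simulated counts. Python 3.11.15, pandas 2.3.3, numpy 2.4.6, scipy 1.17.1 and matplotlib 3.10.9 were used.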

Additional observations from a re-analysis of the deposited data

How the results depend on the processing

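The share of the family depends on what it is divided by: it was 3.31% of counts without the 3 most abundant miRNA genes and 1.13% with reads that aligned to several places in the total, against 1.77% as reported. The 1.13% is low by construction, since those reads enter the total but none enter the family's counts. Per precursor length, the cluster shares were 17.7% on chromosome 1, 6.25% on chromosome 2 and 76.1% on chromosome 8. The count of 4 members that differed between the pools was 0 with edgeR's exact test, which could not call differences of this size, and 3 with marker genes of other tissues left out of the library sizes, an alternative chosen after seeing the data; under the other 6 alternatives it was 4. The count of 2 cluster pairs was 1 with no filter on low counts, where 134 pairs were adjusted together and the chromosome 2 pair no longer passed (adjusted p = 0.0582), and 1 for neighbours at most 1 kb apart, where the chromosome 2 pair is too far apart to enter. No log2 ratio changed sign under the alternatives run. With 2 libraries, leaving out either gives the value of the other, which is printed throughout, and tests nothing further. Depth limits Mir181b-1 most.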
